A study of Mus musculus with 8 samples.

Results

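The nuclear-encoded subunits of the mitochondrial respiratory chain and ATP synthase were followed in lungs of newborn mice. Members were chosen by their gene symbols on the array platform, namely those beginning with Ndufa, Ndufb, Ndufc, Ndufs or Ndufv but not Ndufaf (complex I), Sdha to Sdhd (complex II), Uqcr (complex III), the subunit genes Cox4 to Cox8 (complex IV) and Atp5 (complex V). This gave 84 of the 20863 gene symbols on the array, of which 37 fell under complex I, 4 under complex II, 8 under complex III, 18 under complex IV and 17 under complex V. A filter on dim features kept 82 of them among 17234 tested genes, and the 2 that it removed were Cox7b2 and Cox8c. Each gene was read from its brightest feature. There were 4 arrays of TG_hyperoxia lungs, whose genotype label reads Fgf10 +/-, and 4 arrays of WT_hyperoxia lungs, labelled wild-type. All pups had the C57Bl/6J background and had breathed 85% oxygen from postnatal day 0 to day 3, so every value describes a genotype difference under oxygen, with no room-air lungs to set it against. Fgf10, a growth factor of the lung mesenchyme, was not lower in the first group, at 7.81, 7.99, 8.10 and 8.28 in Fgf10+/- arrays 1 to 4 and 7.53, 8.16, 7.91 and 7.64 in wild-type arrays 1 to 4 (log2 intensity). The directions below therefore rest on the labels. The titles call the Fgf10+/- pups TG, and the allele is not described further in the sources used here. The submitters describe the samples as independent, without naming litters, so the p-values reflect variation among these 8 samples alone. Wild-type array 4 was low in many of the members and wild-type array 1 in the muscle genes, and values without them are given for the main counts, the median and the genes they moved most.

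The respiratory chain passes electrons from NADH (complex I) and succinate (complex II) through coenzyme Q, complex III and cytochrome c to oxygen at complex IV, and the proton gradient so built drives ATP synthase (complex V). Most subunits are encoded in the nucleus, a smaller set in mitochondrial DNA, and several complex IV subunits exist as a widely expressed form and a form restricted to heart and skeletal muscle, lung or testis. Complex I and complex III are known as sources of superoxide, and high oxygen is known to raise mitochondrial oxidant production in lung cells. In bulk lung, fewer cells of a type and less RNA per cell cannot be told apart.

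Nuclear respiratory genes are known for promoters with sites of NRF1, of the ETS factor GABP (also called NRF2) and of YY1. Promoters from RefSeq (GRCm38.p6, 250 bases before to 50 after the annotated start) were matched for 70 of the 84 members, with 76 promoters in all, and searched on both strands for short cores of these sites. The NRF1 core GCATGCG was found in 11 of the 76 member promoters (14.47%), against 4.44% of the 21263 promoters of protein-coding genes. The ETS core CCGGAAG was found in 16 (21.05%, against 11.56%) and the YY1 core AAGATGG in 13 (17.11%, against 6.24%). The TATA box letters TATAAA were found in 8 member promoters (10.53%, against 12.60%) and the MEF2 consensus, a muscle site, in 0 of 76 (against 1.66%). A match is a string of letters and was not tested as a site. The promoters of 5 complex IV genes are printed because they set widely expressed isoforms beside tissue-restricted ones, whose values between arrays are compared further on. Capitals mark matches to any of these motifs. Cox6a1 lies at chr5:115348909-115349208, Cox6b1 at chr7:30626065-30626364, Cox6b2 at chr7:4753045-4753344, Cox8a at chr19:7217567-7217866 and Cox8b at chr7:140900397-140900696, all on the minus strand. The widely expressed Cox6a1, Cox6b1 and Cox8a each hold the ETS core on the opposite strand (CTTCCGG as printed), and Cox6a1 also holds the NRF1 core. Cox6b2 holds none of the motifs and Cox8b holds the TATA box letters. Cox6a1, Cox6b1 and Cox8a are the 3 with the ETS core among the 13 complex IV promoters, and the other widely expressed genes with a promoter (Cox5a, Cox5b, Cox7a2, Cox7b and Cox7c) lack it, so 3 of 8 hold it.
Cox6a1: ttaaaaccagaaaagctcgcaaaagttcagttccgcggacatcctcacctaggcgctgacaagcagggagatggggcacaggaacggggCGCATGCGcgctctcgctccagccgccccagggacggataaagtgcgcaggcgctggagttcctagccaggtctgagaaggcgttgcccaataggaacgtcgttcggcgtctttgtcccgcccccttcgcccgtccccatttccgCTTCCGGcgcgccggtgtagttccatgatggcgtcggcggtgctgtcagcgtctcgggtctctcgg
Cox6b1: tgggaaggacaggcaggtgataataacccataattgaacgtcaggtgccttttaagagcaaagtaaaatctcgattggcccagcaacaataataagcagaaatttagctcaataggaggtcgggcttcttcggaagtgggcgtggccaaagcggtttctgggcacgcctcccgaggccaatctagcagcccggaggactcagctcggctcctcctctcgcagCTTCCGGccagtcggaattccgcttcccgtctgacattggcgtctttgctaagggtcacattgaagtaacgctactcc
Cox6b2: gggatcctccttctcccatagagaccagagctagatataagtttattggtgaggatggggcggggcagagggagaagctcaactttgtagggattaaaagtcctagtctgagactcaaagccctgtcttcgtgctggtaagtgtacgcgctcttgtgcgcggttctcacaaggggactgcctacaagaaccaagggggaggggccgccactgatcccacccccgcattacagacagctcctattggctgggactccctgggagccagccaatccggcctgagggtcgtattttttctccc
Cox8a: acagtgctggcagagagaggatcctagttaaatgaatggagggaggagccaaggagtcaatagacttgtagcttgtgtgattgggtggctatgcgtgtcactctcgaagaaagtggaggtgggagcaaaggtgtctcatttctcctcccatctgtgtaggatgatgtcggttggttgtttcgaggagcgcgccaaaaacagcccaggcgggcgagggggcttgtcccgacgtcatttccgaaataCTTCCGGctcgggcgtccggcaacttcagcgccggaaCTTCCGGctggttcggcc
Cox8b: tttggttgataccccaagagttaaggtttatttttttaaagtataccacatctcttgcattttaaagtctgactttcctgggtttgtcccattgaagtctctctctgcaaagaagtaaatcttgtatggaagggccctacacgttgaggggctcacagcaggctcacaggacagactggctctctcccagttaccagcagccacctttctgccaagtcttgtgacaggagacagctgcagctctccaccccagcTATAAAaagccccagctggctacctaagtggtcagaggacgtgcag

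No respiratory chain gene differed between the genotypes by the test across all genes. With limma and Benjamini-Hochberg adjustment over 17234 genes, 0 of 82 members were called higher and 0 lower at an adjusted p below 0.05, against 0.226% of all tested genes called higher and 0.569% called lower. The smallest adjusted p among members was 0.232, for Cox6b2. At an unadjusted p below 0.05 there were 2 higher members, Sdhc and Atp5s (background 5.39%), and 1 lower member, Cox6b2 (background 5.79%), both smaller shares than the background. The 4 Fgf10+/- arrays lay wholly above the 4 wild-type arrays in Sdhc and Atp5s, and in no member did they lie wholly below, against 3.13% and 3.51% of all tested genes.

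The differences were small as well as uncalled. Log2 fold changes (Fgf10+/- minus wild-type) had a median of 0.01 over the 82 members and of 0.01 over all tested genes, with 45 positive and 37 negative members. They lay within 0.2 of 0 in 80 of the 82 members, the exceptions being Cox6b2 and Atp5s, and in 57.7% of all tested genes. The 95% interval of the difference stayed inside a 1.25-fold change in either direction for 71 members (86.6%, against 18.2% of all tested genes) and inside a 1.5-fold change for 79 (96.3%, against 47.6%). The 3 with wider intervals were Cox6b2, Cox8b and Atp5s. Members are bright on these arrays, and bright features vary less. Among genes with a mean of at least 10 on the log2 scale, 67 of 72 members (93.1%) and 58.4% of the 3722 tested genes had an interval inside 1.25-fold, with median SDs within groups of 0.10 and 0.13. The members were brighter within this cut too, with a median mean of 12.84 against 11.20, so it does not equalise brightness. The top of the scale lay at 15.99, and 7 members averaged above 14, where a difference could be compressed.

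**Figure D1:**
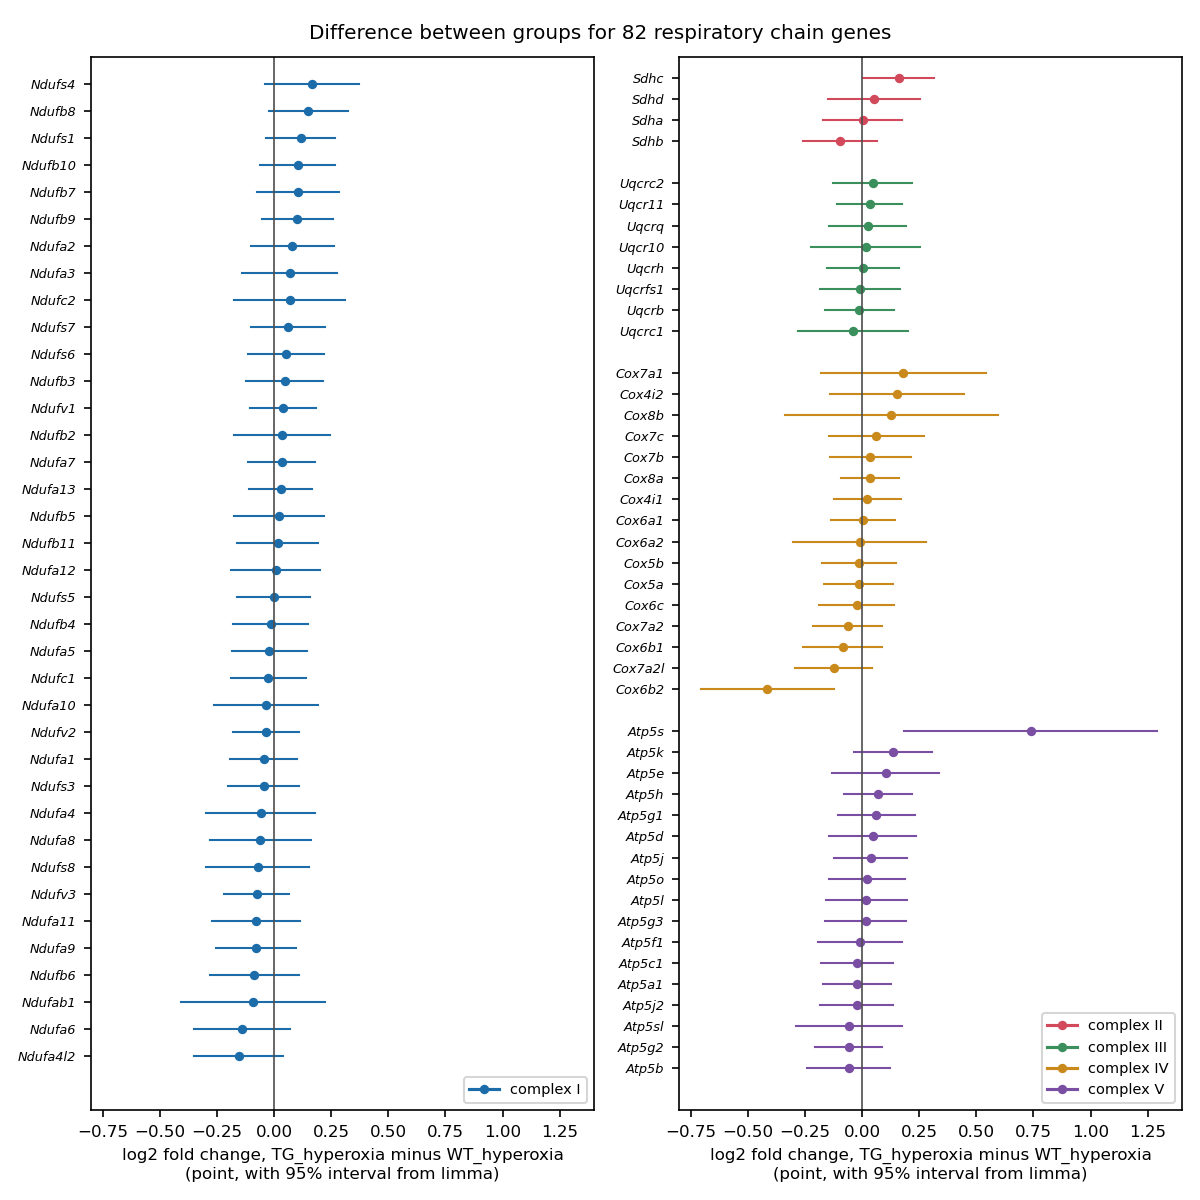
Log2 fold change of each of the 82 tested respiratory chain genes (x axis, TG_hyperoxia minus WT_hyperoxia, n = 4 arrays each), with points for the limma estimate and lines for its 95% interval, coloured by complex and sorted within it. Intervals cross 0 except in Sdhc, Cox6b2 and Atp5s, none of which passed adjustment.

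**Figure D2:**
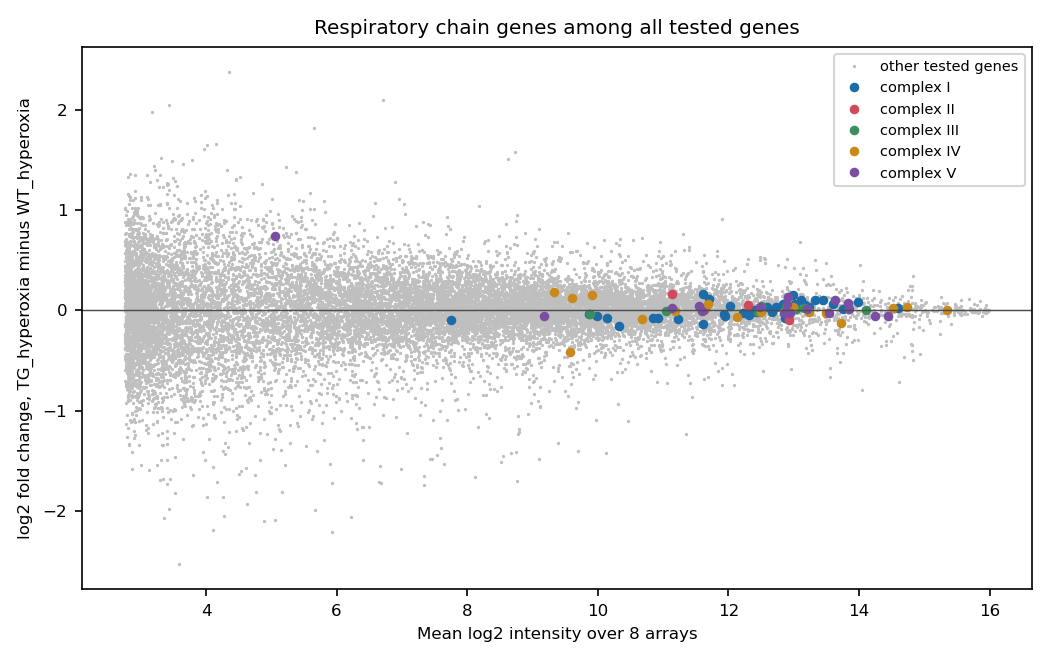
Log2 fold change (y axis, TG_hyperoxia minus WT_hyperoxia) against the mean log2 intensity over 8 arrays (x axis) for all 17234 tested genes, with respiratory chain genes coloured by complex. They lie at the bright end and close to 0, apart from Cox6b2 at -0.41 and the dim Atp5s at 0.74.

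Complex I, which oxidises NADH, had 37 tested genes and 0 called by limma, 0 even at an unadjusted p below 0.05, with log2 fold changes between -0.15 and 0.17 and a median of 0.01. Its core subunits carry the flavin and the iron-sulfur clusters, and 6 of them are described here. Their differences ran from -0.07 in Ndufs8 to 0.12 in Ndufs1, and all 6 intervals lay inside 1.25-fold. Ndufs1, the largest iron-sulfur subunit, read 11.81, 11.69, 11.79 and 11.77 in Fgf10+/- arrays 1 to 4, against 11.59, 11.72, 11.65 and 11.62 in wild-type arrays 1 to 4 (log2 intensity, also below), a log2 fold change of 0.12 (SE 0.07, limma adjusted p = 0.581). The groups overlapped through Fgf10+/- array 2 and wild-type array 2. Ndufv1, which binds NADH and FMN, read 12.70, 12.75, 12.81 and 12.74 in Fgf10+/- lungs and 12.67, 12.78, 12.65 and 12.75 in wild-type lungs, with a log2 fold change of 0.04 (SE 0.07). The ranges of Ndufv1 overlapped across most of their length. Ndufs3, Ndufs7 and Ndufv2, also of the core, had log2 fold changes of -0.05, 0.06 and -0.04.

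Accessory subunits of complex I, which stabilise and regulate the enzyme, spread on both sides of 0. Of 15 Ndufa genes 5 had a positive and 10 a negative sign (-0.15 to 0.08), and of 10 Ndufb genes 8 had a positive and 2 a negative sign (-0.09 to 0.15). None of these signs carries a call. Ndufs4, an accessory subunit whose loss in mice gives a Leigh-like brain disease, had the largest positive value of the complex, with 11.78, 11.73, 11.61 and 11.66 in Fgf10+/- lungs and 11.35, 11.67, 11.71 and 11.38 in wild-type lungs. Its log2 fold change was 0.17 (SE 0.10, 95% interval -0.04 to 0.37, limma adjusted p = 0.557), and wild-type arrays 2 and 3 lay among the Fgf10+/- arrays while arrays 1 and 4 lay below. The value was 0.11 without wild-type array 1. Ndufs4 stands on chromosome 13 with Fgf10, with 10 protein-coding genes between them in the RefSeq gene table, and the 6 members on that chromosome (Ndufs4, Ndufs6, Sdha, Uqcrb, Uqcrfs1 and Cox7c) had log2 fold changes from -0.01 to 0.17 with 0 called. Ndufb8, in the membrane arm, read 13.13, 13.01, 13.14 and 12.99 in Fgf10+/- lungs and 12.87, 13.10, 12.93 and 12.77 in wild-type lungs. Its log2 fold change of 0.15 had an SE of 0.08 (limma adjusted p = 0.524), and wild-type array 2 lay inside the Fgf10+/- range. Ndufa13, also known as GRIM-19, is the complex I gene with the brightest feature and read 14.63, 14.66, 14.57 and 14.58 in Fgf10+/- lungs and 14.60, 14.66, 14.60 and 14.47 in wild-type lungs, a difference of 0.03 (SE 0.06). Ndufab1, the mitochondrial acyl carrier protein, has the dimmest and read 7.83, 7.82, 7.70 and 7.46 in Fgf10+/- lungs and 7.72, 7.85, 7.60 and 7.99 in wild-type lungs, a difference of -0.09 (SE 0.15). The arrays of both groups were mixed in order in Ndufa13 and in Ndufab1.

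Ndufa4 is placed under complex I by its symbol, although the protein is now assigned to complex IV. It read 11.95, 12.04, 11.96 and 11.74 in Fgf10+/- lungs and 12.11, 12.07, 12.12 and 11.62 in wild-type lungs, with wild-type array 4 below the other arrays. Its log2 fold change was -0.06 (SE 0.11), and it was -0.18 without wild-type array 4 and 0.00 without Fgf10+/- array 4, none of them called. Ndufa4l2, a paralogue of Ndufa4 known to be induced in low oxygen by HIF1, read 10.22, 10.14, 10.23 and 10.39 in Fgf10+/- lungs and 10.30, 10.55, 10.41 and 10.35 in wild-type lungs. This was the lowest log2 fold change of complex I, -0.15 (SE 0.09, limma adjusted p = 0.574), and Fgf10+/- array 4 lay within the wild-type range. The other complex I genes lay between the values of Ndufa4l2 and Ndufs4, with Ndufa6 at -0.14 (SE 0.10) and Ndufb7, Ndufb9 and Ndufb10 at 0.10 each (SE 0.07 to 0.08).

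Complex II, succinate dehydrogenase, works in the tricarboxylic acid cycle as well and has no subunit encoded in mitochondrial DNA. All 4 genes were tested and 0 were called (median 0.03). Sdhc, a membrane anchor that holds heme and the quinone site together with Sdhd, was the 1 subunit gene of the whole set whose groups did not overlap. Sdhc read 11.22, 11.17, 11.23 and 11.24 in Fgf10+/- lungs, against 11.06, 11.10, 11.08 and 10.98 in wild-type lungs. Every Fgf10+/- array was above every wild-type array, by a small step. The log2 fold change was 0.16 (SE 0.07, 95% interval 0.00 to 0.31) with a limma adjusted p of 0.427, and its other feature had a difference of 0.09. Sdhd, the other anchor, read 12.36, 12.31, 12.41 and 12.23 in Fgf10+/- lungs and 12.49, 12.29, 12.30 and 12.02 in wild-type lungs (0.05, SE 0.09), and wild-type arrays held both its highest and its lowest value. The catalytic pair had values of 0.00 and -0.10, and their difference from Sdhc was not tested. Sdha, the flavoprotein that oxidises succinate, read 11.64, 11.66, 11.67 and 11.52 in Fgf10+/- lungs and 11.61, 11.57, 11.52 and 11.79 in wild-type lungs (0.00, SE 0.08), with arrays of both groups mixed in order. Sdhb, the iron-sulfur subunit, read 12.77, 12.90, 12.86 and 12.99 in Fgf10+/- lungs and 12.90, 13.09, 12.89 and 13.02 in wild-type lungs (-0.10, SE 0.08), and the groups overlapped.

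Complex III, which hands electrons from ubiquinol to cytochrome c, had the smallest median absolute log2 fold change of the 5 complexes, at 0.02. Its 8 genes had log2 fold changes between -0.04 and 0.05, all 8 intervals lay inside 1.25-fold, and 0 were called, also at an unadjusted p below 0.05. Uqcrfs1, the Rieske iron-sulfur protein, read 11.09, 10.94, 11.02 and 11.12 in Fgf10+/- lungs and 11.09, 11.14, 11.05 and 10.91 in wild-type lungs (-0.01, SE 0.08). Uqcrc1, a core protein, read 9.92, 9.88, 10.02 and 9.62 in Fgf10+/- lungs and 10.04, 10.03, 9.72 and 9.81 in wild-type lungs (-0.04, SE 0.11). In Uqcrfs1 and Uqcrc1 the groups overlapped. Uqcrc2, its partner, read 12.56, 12.52, 12.55 and 12.43 in Fgf10+/- lungs and 12.49, 12.54, 12.58 and 12.27 in wild-type lungs (0.05, SE 0.08). Its 10 features gave differences between 0.01 and 0.09. Uqcr11, a small subunit, read 12.88, 12.96, 12.82 and 12.92 in Fgf10+/- lungs and 12.86, 12.84, 12.94 and 12.81 in wild-type lungs (0.03, SE 0.07). Uqcrh, the acidic hinge protein and the brightest feature of the complex, read 14.14, 14.16, 14.06 and 14.06 in Fgf10+/- lungs and 14.09, 14.09, 14.27 and 13.96 in wild-type lungs (0.00, SE 0.07). In these 3 genes wild-type array 4 was the lowest of the 8 arrays.

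Complex IV, cytochrome c oxidase, reduces oxygen to water, and its small nuclear subunits surround a catalytic core made in the mitochondrion. Of 16 tested genes 0 were called, and the widely expressed forms had smaller SDs than the tissue-restricted forms. The 10 widely expressed genes (Cox4i1, Cox5a, Cox5b, Cox6a1, Cox6b1, Cox6c, Cox7a2, Cox7b, Cox7c and Cox8a) had log2 fold changes between -0.08 and 0.06, a median SD within groups of 0.08 and 10 of 10 intervals inside 1.25-fold. The 5 tested isoforms of heart and skeletal muscle, lung or testis (Cox4i2, Cox6a2, Cox6b2, Cox7a1 and Cox8b) ran from -0.41 to 0.18, with a median SD within groups of 0.25 and 1 of 5 intervals inside 1.25-fold (3 of 5 inside 1.5-fold). Features of the tissue-restricted forms were also dimmer, with a median mean log2 intensity of 9.61 against 13.11, and bright features vary less. In 1 pair the order was the other way, as Cox6a2 (mean log2 intensity 11.19) had an SD within groups of 0.25 and Cox6b1 (10.67) of 0.07. The part of brightness in these SDs was not tested. A level on an array cannot be set against that of another gene, so each isoform is compared only between arrays.

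Cox4i1, the widely expressed form of subunit IV, read 14.57, 14.53, 14.60 and 14.40 in Fgf10+/- lungs and 14.48, 14.60, 14.44 and 14.49 in wild-type lungs, a difference of 0.02 (SE 0.07). Cox4i2, the form known from lung and from oxygen sensing in pulmonary arteries, read 9.84, 9.89, 10.04 and 10.17 in Fgf10+/- lungs and 9.47, 9.94, 10.15 and 9.75 in wild-type lungs. Its log2 fold change was 0.15 (SE 0.14, limma adjusted p = 0.738), and it was 0.03 without wild-type array 1, which had the lowest value of the 8 arrays. Cox6a1 and Cox8a are among the brightest members and lie near the top of the scale. Cox6a1 read 15.36, 15.29, 15.42 and 15.33 in Fgf10+/- lungs and 15.36, 15.46, 15.32 and 15.25 in wild-type lungs (0.00, SE 0.07). Cox8a read 14.70, 14.73, 14.79 and 14.78 in Fgf10+/- lungs and 14.68, 14.77, 14.72 and 14.71 in wild-type lungs (0.03, SE 0.06). The groups overlapped in both genes.

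Their heart and skeletal muscle forms were spread more widely among wild-type arrays. Cox6a2 read 11.45, 11.11, 11.12 and 11.04 in Fgf10+/- lungs and 10.81, 11.25, 11.53 and 11.17 in wild-type lungs (-0.01, SE 0.13). Cox7a1 read 9.61, 9.37, 9.29 and 9.42 in Fgf10+/- lungs and 8.79, 9.36, 9.74 and 9.07 in wild-type lungs (0.18, SE 0.17). Cox8b read 9.88, 9.61, 9.70 and 9.51 in Fgf10+/- lungs and 8.73, 9.71, 10.09 and 9.66 in wild-type lungs (0.13, SE 0.22). In all 3 genes wild-type array 1 was the lowest and wild-type array 3 the highest of the 8 arrays, and Fgf10+/- array 1 was the highest of its group. Without wild-type array 1 the log2 fold changes were -0.14 for Cox6a2, 0.03 for Cox7a1 and -0.14 for Cox8b, none of them called. Markers of heart and striated muscle moved with that array. Of 18 such markers 11 were lowest in wild-type array 1, as were 14.6% of all tested genes. The mean log2 level of the 18 lay between 7.82 and 8.09 in Fgf10+/- arrays. In wild-type arrays it lay between 7.25 (array 1) and 8.47 (array 4). Nppa, an atrial hormone among these markers, read 6.25 at most in Fgf10+/- arrays. It read 11.25 in wild-type array 4, against 4.86 at most in the other wild-type arrays. The mean of wild-type array 4 thus rested in part on this 1 gene. All 18 markers had passed the filter on their mean level, though several were dim. Only 1 was called, Myh7, higher by 0.76 (SE 0.12, limma adjusted p = 0.0100). The part of these markers in the values of the muscle isoforms was not tested.

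Cox7a2, the widely expressed partner of Cox7a1, read 12.08, 12.16, 11.99 and 12.14 in Fgf10+/- lungs and 12.16, 12.11, 12.21 and 12.15 in wild-type lungs (-0.06, SE 0.07). Cox7a2l, which takes part in joining complexes III and IV into supercomplexes, read 13.65, 13.70, 13.59 and 13.73 in Fgf10+/- lungs and 13.94, 13.64, 13.88 and 13.71 in wild-type lungs (-0.12, SE 0.08, limma adjusted p = 0.598). Wild-type arrays 1 and 3 stood above all Fgf10+/- arrays in Cox7a2l, and arrays 2 and 4 did not. Cox7b, on the X chromosome, read 13.02, 13.01, 12.91 and 13.10 in Fgf10+/- lungs and 13.01, 13.03, 13.10 and 12.75 in wild-type lungs (0.04, SE 0.08). The 3 X-linked members, Ndufa1, Ndufb11 and Cox7b, had log2 fold changes between -0.05 and 0.04, with 0 called. Xist, the RNA of the inactive X chromosome, read 6.56, 2.63, 1.93 and 6.73 in Fgf10+/- arrays 1 to 4 and 6.29, 6.85, 2.01 and 6.80 in wild-type arrays 1 to 4, so it was low on 2 Fgf10+/- arrays and on 1 wild-type array, and it was tried as a covariate.

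Cox6b2, described as the testis form of subunit VIb, had the lowest log2 fold change of the subunits. It read 9.35, 9.36, 9.52 and 9.22 in Fgf10+/- lungs, against 9.37, 9.80, 9.88 and 10.06 in wild-type lungs. Wild-type arrays 2, 3 and 4 stood above all Fgf10+/- arrays, while wild-type array 1 lay among them. The log2 fold change was -0.41 (SE 0.14, 95% interval -0.71 to -0.12, limma adjusted p = 0.232), and without wild-type array 1 it was -0.55 and called (limma adjusted p = 0.0298). Cox6b1, the widely expressed form, read 10.70, 10.65, 10.55 and 10.61 in Fgf10+/- lungs and 10.65, 10.77, 10.63 and 10.79 in wild-type lungs (-0.08, SE 0.08), with overlapping groups. Cox7b2 and Cox8c, known from testis, were below the filter level of 2.76 in their mean over the 8 arrays, and whether they lay above background is unknown. Cox7b2 read 1.96, 2.25, 2.04 and 2.05 in Fgf10+/- lungs and 2.26, 3.27, 1.74 and 2.15 in wild-type lungs. Cox8c read 2.55, 2.60, 2.71 and 2.38 in Fgf10+/- lungs and 2.49, 2.02, 2.63 and 2.44 in wild-type lungs. Wild-type array 2 held the highest Cox7b2 and the lowest Cox8c value.

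**Figure D3:**
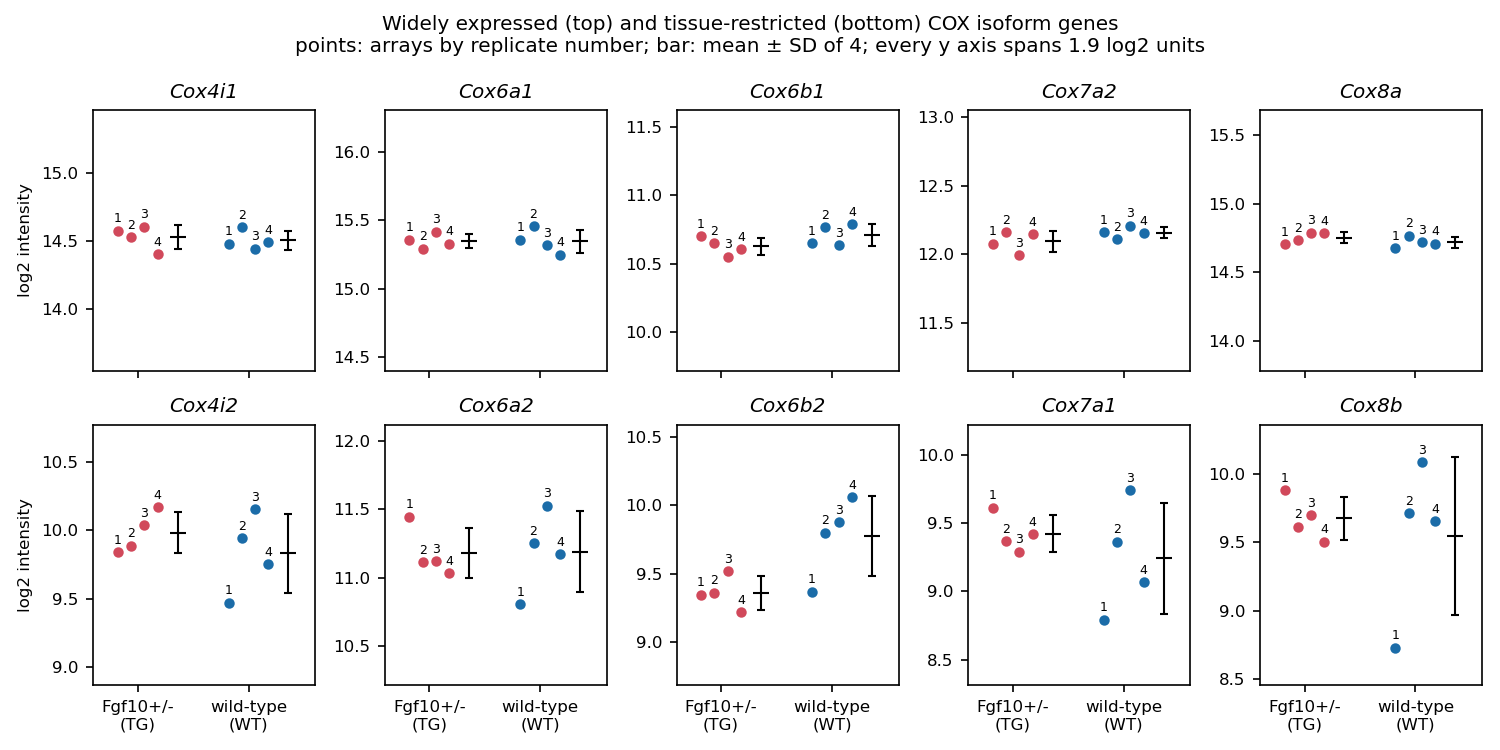
Log2 intensity (y axes, each spanning 1.9 units) of 5 widely expressed complex IV genes (top) and 5 tissue-restricted isoforms (bottom) in TG_hyperoxia (left, red) and WT_hyperoxia lungs (right, blue), with replicate numbers at the points and bars for mean ± SD (n = 4). The widely expressed genes sit in narrow bands, and wild-type array 1 is the lowest of the 8 arrays in Cox4i2, Cox6a2, Cox7a1 and Cox8b.

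Complex V, ATP synthase, had 17 genes under its symbols and 0 called (median 0.02). At an unadjusted p below 0.05 there was 1 gene, Atp5s. Atp5b, the catalytic beta subunit, read 14.37, 14.39, 14.43 and 14.45 in Fgf10+/- lungs and 14.37, 14.53, 14.28 and 14.68 in wild-type lungs (-0.06, SE 0.08), and wild-type arrays held its highest and lowest values. Atp5a1, the alpha subunit, read 12.96, 12.98, 12.83 and 12.94 in Fgf10+/- lungs and 12.96, 12.98, 12.84 and 13.02 in wild-type lungs (-0.02, SE 0.07). The 5 subunits of the head and central stalk (Atp5a1, Atp5b, Atp5c1, Atp5d and Atp5e) lay between -0.06 and 0.10. The proton-driven ring is built of the c subunit, and Atp5g1, Atp5g2 and Atp5g3 encode the same mature protein. Atp5g1 read 12.91, 12.84, 12.88 and 13.09 in Fgf10+/- lungs and 12.76, 13.01, 12.85 and 12.85 in wild-type lungs (0.06, SE 0.08). Atp5g2 read 14.28, 14.11, 14.16 and 14.32 in Fgf10+/- lungs and 14.22, 14.33, 14.29 and 14.27 in wild-type lungs (-0.06, SE 0.07). Atp5g3 read 13.17, 13.21, 13.16 and 13.29 in Fgf10+/- lungs and 13.09, 13.26, 13.03 and 13.38 in wild-type lungs (0.02, SE 0.08). In each of the 3 c subunit genes the groups overlapped.

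The 7 other subunits of the membrane part and the outer stalk (Atp5f1, Atp5h, Atp5j, Atp5j2, Atp5k, Atp5l and Atp5o) lay between -0.02 and 0.14. Atp5k, subunit e, which takes part in pairing ATP synthases at the cristae, read 12.97, 13.07, 12.90 and 12.95 in Fgf10+/- lungs and 12.74, 12.90, 12.99 and 12.72 in wild-type lungs (0.14, SE 0.08, limma adjusted p = 0.563). Its 3 features had differences between 0.10 and 0.14, and wild-type arrays 2 and 3 overlapped the Fgf10+/- arrays. Atp5h, subunit d, read 13.81, 13.90, 13.81 and 13.98 in Fgf10+/- lungs and 13.71, 13.87, 13.87 and 13.76 in wild-type lungs (0.07, SE 0.07), with overlapping groups. The remaining 2 symbols do not name subunits of the enzyme in the newer nomenclature. Atp5s, now Dmac2l and once described as coupling factor B, read 5.27, 5.51, 5.87 and 5.04 in Fgf10+/- lungs, against 4.68, 4.77, 4.62 and 4.66 in wild-type lungs, so that all 4 Fgf10+/- arrays lay above all 4 wild-type arrays. This largest difference of the set, 0.74 (SE 0.26, 95% interval 0.18 to 1.29, limma adjusted p = 0.269), is that of its dimmest tested member. Atp5sl, now Dmac2 and known as a complex I assembly factor, differed by -0.06 (SE 0.11). Without these 2 genes the median over 80 members was again 0.01.

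Wild-type array 4 stood apart in these genes. It was the lowest of the 8 arrays in 36 of 82 members (43.9%), against 19.3% of all tested genes and 22.7% of genes with a mean of at least 10. Those 36 were 19 of complex I, 2 of complex II, 5 of complex III, 4 of complex IV and 6 of complex V. Wild-type array 4 was the highest array in 8 of 82 members (9.8%). Among all tested genes this share was 16.9%, and among those with a mean of at least 10 it was 22.3%. The median deviation of the members from their own means was 0.02, 0.03, -0.00 and -0.01 in Fgf10+/- arrays 1 to 4 and -0.01, 0.05, 0.03 and -0.10 in wild-type arrays 1 to 4. By complex, wild-type array 4 deviated by -0.13 in complex I and -0.11 in complex III, and by -0.03 in complex II, -0.03 in complex IV and -0.08 in complex V. Over all tested genes its median deviation was -0.02. Without that array the members' median log2 fold change was -0.02, with 0 of 82 called, so the sign of the median rested on it. Of the 37 tested members given with values per array, 8 had the other sign without it, each uncalled either way. Among them were Sdhd (-0.03), Uqcrc2 (-0.02), Ndufa13 (-0.01) and Cox7b (-0.04). Leaving out any other single array changed the sign of 2 to 6 of the 37. The SD among wild-type arrays exceeded that among Fgf10+/- arrays in 60 of 82 members (73.2%), against 57.0% of all tested genes and 65.8% of genes with a mean of at least 10, and in 45 of 82 (against 48.5% of all tested genes) without wild-type array 4.

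**Figure D4:**
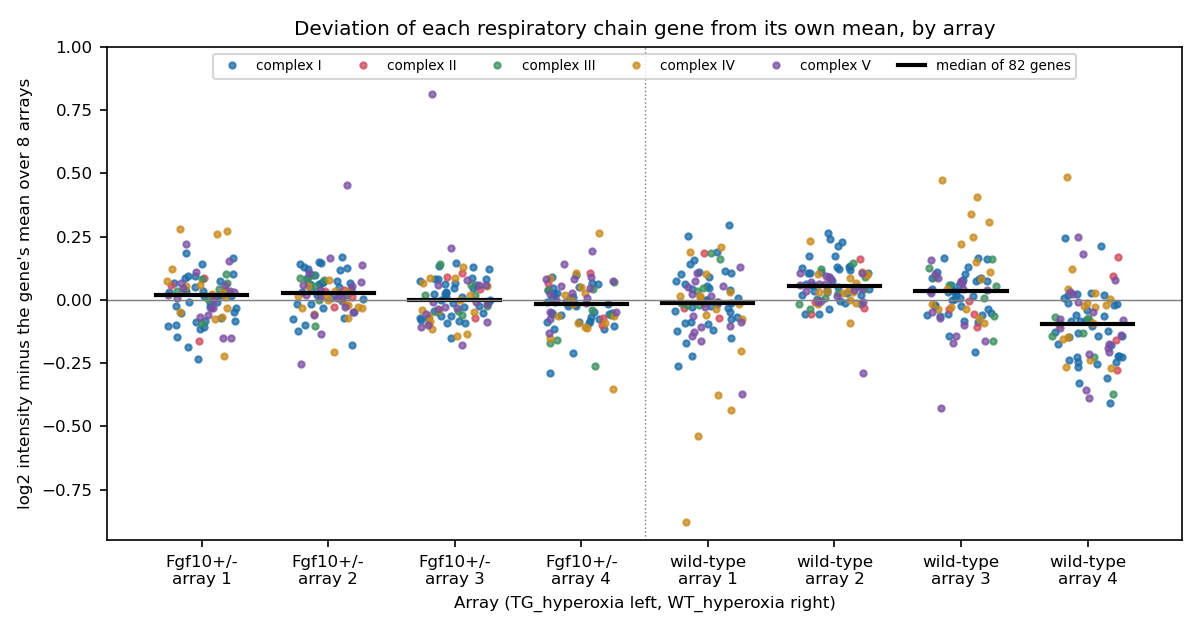
Deviation of each respiratory chain gene from its own mean over the 8 arrays (y axis, log2 units) by array (x axis, Fgf10+/- left, wild-type right), coloured by complex, with bars for the median of the 82 genes. The median lies between -0.01 and 0.03 in the Fgf10+/- arrays and at -0.10 in wild-type array 4, and the scattered points of wild-type array 1 include the low values of the muscle isoforms.

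Features of the same gene mostly gave differences near 0. Of the 26 members with more than 1 feature above the filter, 24 had every feature within 0.2 of 0. The exceptions were dim features of Ndufb11, whose lowest difference was -0.34, and of Ndufv3, at -0.30. In 13 of the 26 the features had both signs.

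The genes around the chain, in lists set out for this report, had 0 calls by limma, with 0 to 2 genes a list past an unadjusted p below 0.05. Mitochondrial DNA encodes membrane subunits of complexes I, III, IV and V, and 0 of its 11 measured genes were called (median 0.01, -0.04 to 0.23). ND1, a proton-pumping subunit of complex I, read 11.66, 11.50, 11.81 and 11.69 in Fgf10+/- lungs and 11.32, 11.53, 11.76 and 11.12 in wild-type lungs. Its log2 fold change of 0.23 (SE 0.12, limma adjusted p = 0.523) was the largest of the 11, and it was 0.13 (SE 0.11) without wild-type array 4, its lowest array. ND2 had a value of 0.10 and ND4 of 0.06, while the complex IV core genes COX1, COX2 and COX3 had -0.04, -0.00 and 0.01 and the complex III gene CYTB -0.00. Group means of COX1 to COX3 and CYTB lay between 14.99 and 15.71, near the top of the scale (15.99), where a difference could be compressed. Of 15 complex I assembly factors 0 were called (median -0.01), the smallest p-values being those of Tmem186 (0.61, SE 0.29), Ndufaf8 (0.44, SE 0.27) and Ndufaf2 (-0.14, SE 0.12). Of 30 assembly factors of the other complexes 0 were called (median 0.01), with Sco2, a copper chaperone of complex IV, at 0.25 (SE 0.12), Ttc19 at -0.31 (SE 0.17) and Uqcc2 at 0.19 (SE 0.10). Of 17 genes of electron carriers and coenzyme Q synthesis 0 were called (median 0.06), with Etfb, of the electron transfer flavoprotein, at 0.22 (SE 0.07), Coq7 at 0.20 (SE 0.10) and Coq8b at 0.22 (SE 0.13). Of 16 tricarboxylic acid cycle and pyruvate dehydrogenase genes 0 were called (median 0.03), with citrate synthase (Cs) at -0.08, Idh2 at 0.10 and Mdh2 at -0.09. Of 17 glycolysis genes 0 were called (median -0.04), with Aldoc at 0.34 (SE 0.10), Pgam1 at -0.24 (SE 0.09) and Ldhb at 0.20 (SE 0.09).

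Regulators of mitochondrial gene expression had mostly positive values without a call. Of 19 such genes 16 had a positive and 3 a negative sign (median 0.10), against 51.29% positive among all tested genes, and 0 were called. The count of signs was not tested, and several of these genes are dim. Ppargc1a, the coactivator PGC-1alpha, which drives mitochondrial biogenesis, read 7.96, 7.72, 7.54 and 7.63 in Fgf10+/- lungs, against 6.94, 7.21, 7.57 and 6.98 in wild-type lungs. Its log2 fold change was 0.54 (SE 0.17, 95% interval 0.16 to 0.91, limma adjusted p = 0.227), wild-type array 3 overlapped the Fgf10+/- arrays, and the value was 0.23 when all its features were averaged. Tfb1m, a methyltransferase of mitochondrial ribosomal RNA, was higher without overlap between groups, at 0.38 (SE 0.13, limma adjusted p = 0.242). In 3.13% of all tested genes the Fgf10+/- arrays lay wholly above, and in 3.51% wholly below. In the lists described before, Etfb and Aldoc also lay wholly above, and Cox15, a complex IV assembly factor, wholly below (-0.19). The nuclear receptor Esrrg had 0.68 (SE 0.35), with dim means of 4.64 in Fgf10+/- and 3.96 in wild-type lungs. Factors that bind respiratory gene promoters had smaller values. Nrf1 read 8.86, 8.69, 8.94 and 8.72 in Fgf10+/- lungs and 8.92, 8.78, 8.67 and 8.54 in wild-type lungs (0.08, SE 0.12). Gabpa read 7.00, 7.22, 7.21 and 7.25 in Fgf10+/- lungs and 7.02, 6.90, 7.26 and 6.83 in wild-type lungs (0.17, SE 0.16). Groups overlapped in both. Esrra, the nuclear receptor ERRalpha, read 10.13, 10.31, 9.89 and 10.09 in Fgf10+/- lungs and 10.01, 9.78, 10.07 and 10.09 in wild-type lungs (0.12, SE 0.11). Tfam, which packages and transcribes mitochondrial DNA, read 8.84, 8.66, 8.95 and 9.05 in Fgf10+/- lungs and 8.89, 8.78, 9.00 and 8.47 in wild-type lungs (0.09, SE 0.14). Their groups overlapped too. A further list of 11 genes held carriers of adenine nucleotides and phosphate, channels and uncoupling proteins, and also Atpif1, Higd1a and Higd2a. Of the 11 genes 10 had a negative sign and 0 were called (median -0.08). Of all 17234 tested genes 8395 had a negative sign, and this count was not tested either. Vdac1, the outer membrane channel, had -0.23 (SE 0.09, limma adjusted p = 0.326), Higd2a -0.08 (SE 0.07) and Ucp3 -0.12 (SE 0.12).

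Some markers of other processes passed the test in the same lungs, in lists chosen with earlier results of these data known. Lung markers were bright, with Sftpc and Scgb1a1 near the top of the scale. Of 12 alveolar type 2 cell markers 6 were called higher (median 0.41), of 12 cell division genes 9 were called lower (median -1.43) and of 10 macrophage markers 1 was called lower, Spp1 (median -0.59). Among all tested genes 0.226% were called higher and 0.569% lower. These calls rest on the variance trend of the test, as only 1 of all tested genes was called without it, against 137 with it. No alveolar type 1 (8 tested), red blood cell (7) or fat cell marker (6) was called, with medians of -0.03, 0.10 and 0.14. The red blood cell markers Hba-a1, Hba-a2 and Hbb-bt had group means between 15.80 and 15.98, where a difference could be compressed. Pearson correlations between arrays ran from 0.975 to 0.985 within groups and from 0.974 to 0.987 across groups.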

How the data were processed

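RNA of 8 lungs was hybridised to 1-colour Agilent arrays (Cy3). The deposited table holds log2 intensities for 62976 features, already normalized by the authors, who used limma per the submitters' processing notes (version and background correction not given in the sources used here). Features with a missing value (189) or without a gene symbol (31511) were left out, as were those with a mean below the 30th percentile (2.76). Symbols came from the platform annotation and were updated by accession for 29050 features. Each gene was represented by its feature with the highest mean, and no further normalization was applied. Groups came from the labels, 4 arrays each. Fgf10+/- minus wild-type was tested with limma 3.58.1 (R 4.3.3, lmFit and eBayes with a variance trend), and p-values were adjusted by Benjamini-Hochberg over 17234 genes. Intervals cover 95%. The code was tested on simulated data. Precision is limited by the number of arrays.

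Members and gene lists were chosen with earlier results of these data known. Named with values per array were the 3 members with the smallest p-values and the brightest and dimmest of each complex, isoform pairs, catalytic subunits and 5 regulators. Other lists were named by called genes or their 3 smallest p-values. Members of the complex I core, of chromosome 13 and of the X chromosome, COX1 to COX3 and CYTB were added after their values were seen. Alternatives covered the filter, normalization, feature choice, symbols, variance model, array weights, Xist, the replicate block and leaving out each array.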

Additional observations from a re-analysis of the deposited data

Results flagged for a closer look

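Over the 44 genes given with values per array, 88 groups of 4 arrays were examined for a single array far from the rest, of which chance would mark about 1 in 20. It was found in 1 group, for Ndufa4. In Fgf10+/- arrays 1 to 4 the gene read 11.95, 12.04, 11.96 and 11.74. In wild-type lungs array 4 read 11.624, against 12.110, 12.072 and 12.115 in wild-type arrays 1 to 3, a gap of 0.912 of that group's range.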

How the results depend on the processing

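Members called by limma stayed at 0 of 82 under each alternative except leaving out wild-type array 1. Over the 8 settings that leave out 1 array the count ran from 0 to 1, the 1 being Cox6b2. Genes called among all tested, 137 as reported, came to 1 without a variance trend, 80 with Xist as covariate, 278 at an adjusted p below 0.10, and 34 (without wild-type array 2) to 173 (without wild-type array 1) with 1 array left out. The causes of these shifts were not tested. Members whose groups did not overlap, 2 as reported, came to 3 with the mean of all features, 1 with updated symbols, which drop Atp5s and Atp5sl and add Atp5md and Atp5mpl, and 2 to 4 with 1 array left out. Groups did not overlap in 6.64% of all tested genes as reported, in 6.48% with the mean of all features and in 9.33% to 11.5% with 1 array left out. The median over members ran from -0.02 (without wild-type array 4) to 0.03 (without wild-type array 2). With the replicate block 116 genes and 0 members were called, and the smallest adjusted p among members was 0.239. Deviations of same-numbered arrays from their group means correlated at -0.00, -0.06, 0.03 and 0.07 over all tested genes, for numbers 1 to 4. Over the members they correlated at -0.32, -0.13, -0.17 and 0.01. Only number 4 exceeded its highest correlation with another number (0.07 against 0.02). These values give no clear sign of pairing by number, but with 4 arrays a group they cannot exclude it. The block changed no call of the members. Of 756 single-gene values under the alternatives 755 kept their side of the threshold, 1 passed it (Cox6b2) and 44 had the other sign, with 0 turning direction where only estimates larger than 1 SE were counted as having one. The number of arrays, 4 a group, limits the precision.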
